A study of Mus musculus with 8 samples.

Results

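The 6 *Iroquois* homeobox genes of the mouse, *Irx1* to *Irx6*, were examined in ventricles of embryonic hearts at E15.5. They were taken by symbol from a table of 53465 Ensembl genes, and 6 of 6 were found. Levels were measured by poly(A) RNA-seq in 4 *Nrg1GOF* and 4 wild-type (WT) libraries, with 1 ventricle sample per replicate. The *Nrg1GOF* embryos carried the Rosa26Nrg-1 allele, a neuregulin-1 transgene at the Rosa26 locus, together with a cardiac Cre driver. That driver is spelled Nkx5.5-Cre in the genotype labels and Nkx2.5-Cre in the title of the series, and Nkx2.5-Cre is active in the lineage of cardiac progenitors that gives rise to myocardium and to part of the other heart cells. The controls are labelled WT only, and whether they carried the Cre or the transgene without the other is not stated. The labels do not say whether replicates came from separate embryos or litters, so the p values below measure only the spread between these samples.

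Iroquois proteins are transcription factors of the TALE class, whose homeodomain carries 3 additional residues between its first and second helices. In the mouse the genes lie in 2 clusters, *Irx1*, *Irx2* and *Irx4* on chromosome 13 (the IrxA cluster) and *Irx3*, *Irx5* and *Irx6* on chromosome 8 (the IrxB cluster). In the developing heart *Irx4* is known as a gene of ventricular as opposed to atrial myocardium, *Irx3* as a gene of trabeculae and of the fast-conducting network that forms from them, and *Irx5* as a regulator of the transmural gradient of repolarization. *Irx1* and *Irx2* are known from the ventricular septum and the trabeculae. Neuregulin-1 acts through ErbB receptors on cardiomyocytes and drives the growth of trabeculae.

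Library totals ranged from 8038641 to 26786039 counts, and *Nrg1GOF* replicate 4 was the shallowest. Within WT, replicates 1 and 2 and replicates 3 and 4 formed close pairs. Their median absolute difference in log2 CPM over the 15580 tested genes was 0.0974 and 0.083, against 0.166 to 0.175 between the pairs. *Nrg1* itself was higher in every library labelled *Nrg1GOF* (log2 fold change 3.94). A gene was called where its adjusted p in the quasi-likelihood test of edgeR was under 0.05, as for 4467 (28.7%) of those tested. CPM stands for counts-per-million of a library after TMM scaling, and a log2 fold change above 0 means a higher level in *Nrg1GOF*.

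The Iroquois genes moved in both directions. *Irx5* and *Irx3* rose most, *Irx1* and *Irx2* rose by less, and *Irx4* fell. *Irx6*, the lowest of the family, did not pass the test. In all, 6 of 6 members passed the filter on low counts and 5 were called, 4 higher and 1 lower in *Nrg1GOF*, where 15.9% and 12.8% of all tested genes were called in these directions. The median log2 fold change was 0.58 over the 6 members and -0.0116 over all tested genes. Of the 6 tested members, 2 were called with a log2 fold change of at least 1, as were 3.74% of all tested genes. The libraries of the 2 genotypes did not overlap in 6 of 6 members, 5 higher and 1 lower in *Nrg1GOF*, which was also the case for 30.7% of all tested genes (16.6% higher and 14.1% lower). In bulk tissue such as this, fewer cells of a type and less RNA per cell cannot be told apart.

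**Figure D1:**
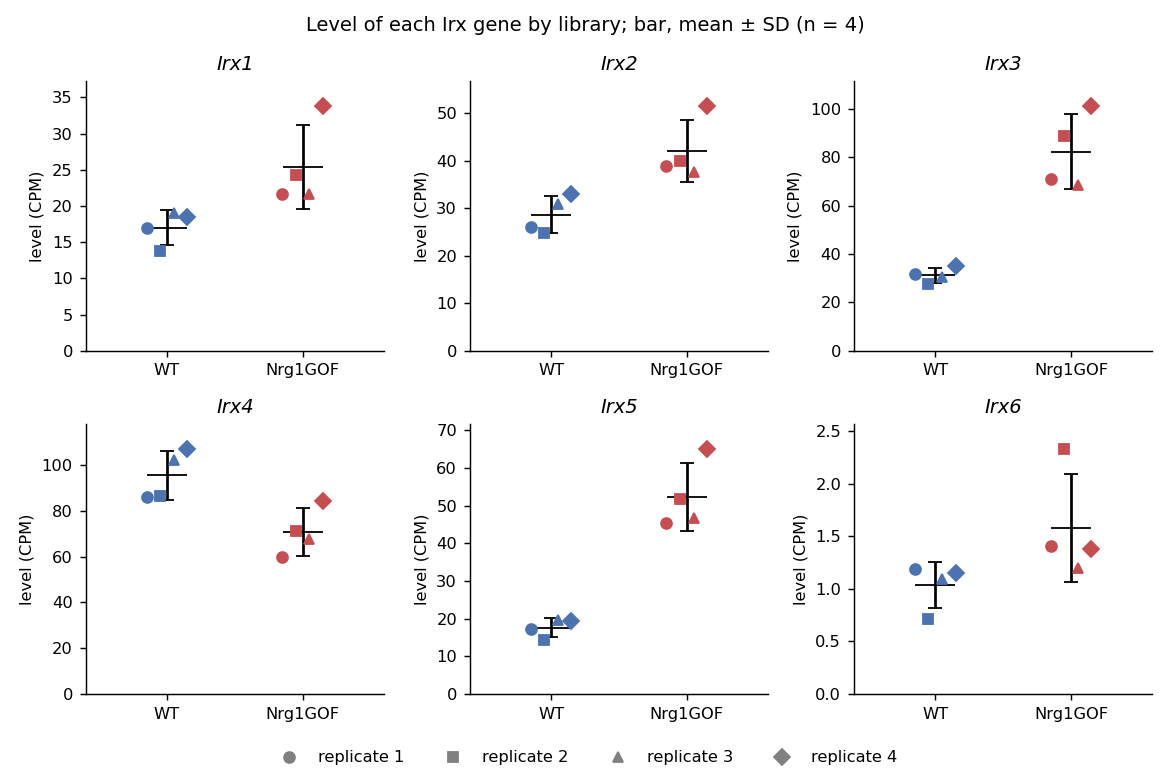
Level of *Irx1* to *Irx6* in CPM (y axis of each panel, from 0) in the 4 WT (blue) and 4 *Nrg1GOF* (red) libraries, with a marker shape for each replicate number and the mean ± SD as a bar. *Irx3* and *Irx5* show the widest gaps between genotypes, *Irx4* is lower in *Nrg1GOF*, and replicate 4 is the highest *Nrg1GOF* library in 5 of the 6 genes.

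*Irx5* (ENSMUSG00000031737, GRCm38 chromosome 8, 92357625 to 92376286, plus strand) showed the steepest change. Its level was 45.3, 51.7, 46.7 and 65.1 CPM in *Nrg1GOF* replicates 1 to 4 and 17.3, 14.2, 19.6 and 19.3 CPM in WT replicates 1 to 4. Every *Nrg1GOF* library was far above every WT library. The mean was 17.6 ± 2.45 CPM for WT and 52.2 ± 9.04 CPM for *Nrg1GOF* (SD, n = 4 each), 2.94-fold higher with a 95% interval of 2.39 to 3.60 (log2 fold change 1.55, SE 0.13, edgeR adjusted p = 5.16e-05). Only 1.12% of the tested genes had a higher fold change. Its counts ran from 261 to 1091 per library.

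*Irx3* (ENSMUSG00000031734, chromosome 8, 91798525 to 91802067, minus strand) followed. It was at 71.0, 88.7, 68.4 and 101.4 CPM in *Nrg1GOF* and at 31.7, 27.7, 30.6 and 35.0 CPM in WT. No *Nrg1GOF* library came near a WT library. *Irx3* was 2.62-fold higher, with a 95% interval of 2.15 to 3.19 (log2 fold change 1.39, SE 0.13, adjusted p = 7.31e-05), and 1.65% of the tested genes had a higher one. *Irx3* overlaps the antisense gene *Irx3os*. The libraries were made with a directional kit, but whether counting used the strand was not stated in the sources used here. *Irx3os* had far fewer reads than *Irx3*, with 1.597 ± 0.41 CPM in WT libraries and 3.09 ± 1.17 CPM in *Nrg1GOF* libraries (SD, n = 4 each).

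*Irx4* (ENSMUSG00000021604, chromosome 13, 73260479 to 73269608, plus strand) was the member that fell. It was at 86.1, 86.7, 102 and 107 CPM in WT and at 59.7, 71.2, 68.0 and 84.5 CPM in *Nrg1GOF*. The groups were close, since *Nrg1GOF* replicate 4 lay just under WT replicate 1. The WT level was 1.36 times that of *Nrg1GOF* (log2 fold change -0.44, SE 0.11, adjusted p = 0.0143). WT replicates 3 and 4 averaged 105 CPM against 86.4 CPM for WT replicates 1 and 2. Against the latter pair alone *Irx4* was not called (log2 fold change -0.30, adjusted p = 0.107), nor with each WT pair summed to 1 sample (-0.43, adjusted p = 0.0687).

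*Irx2* (ENSMUSG00000001504, chromosome 13, 72628820 to 72634198, plus strand) was at 38.8, 40.1, 37.7 and 51.6 CPM in *Nrg1GOF* and at 26.1, 24.8, 30.9 and 32.9 CPM in WT (log2 fold change 0.54, SE 0.12, adjusted p = 0.00797). *Irx1* (ENSMUSG00000060969, chromosome 13, 71957921 to 71963723, minus strand) was at 21.6, 24.3, 21.7 and 33.9 CPM in *Nrg1GOF* and at 16.9, 13.8, 19.0 and 18.4 CPM in WT (log2 fold change 0.55, SE 0.15, adjusted p = 0.0229). In both genes *Nrg1GOF* replicate 4 stood above the other 3 *Nrg1GOF* libraries, which lay within 3 CPM of each other. *Irx1* had the highest adjusted p of the called members. It was lost in 3 of 8 fits that each left out a library, namely without *Nrg1GOF* replicate 2 (log2 fold change 0.57, adjusted p = 0.0525), WT replicate 1 (0.55, adjusted p = 0.0502) and WT replicate 2 (0.46, adjusted p = 0.0518), and against WT replicates 3 and 4 alone (log2 fold change 0.42, adjusted p = 0.102) or summed WT pairs (0.55, adjusted p = 0.0904).

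The start regions of *Irx2* and *Irx4* are shown because these genes are neighbours in one cluster and moved in opposite directions. RefSeq promoter entries matched 3 of the 6 members (GRCm38.p6), *Irx2*, *Irx3* and *Irx4*. The windows run 5′ to 3′ on the plus strand from 250 to 21 bases before the RefSeq start, at chr13:72628570-72628799 for *Irx2* and chr13:73260247-73260476 for *Irx4*, upstream of the annotated gene. Capitals mark matches to the GC box GGGCGG.
Irx2: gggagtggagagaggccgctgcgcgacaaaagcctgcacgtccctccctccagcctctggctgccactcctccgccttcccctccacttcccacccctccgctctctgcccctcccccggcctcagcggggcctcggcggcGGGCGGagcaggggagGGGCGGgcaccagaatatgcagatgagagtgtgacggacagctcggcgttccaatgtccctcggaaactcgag
Irx4: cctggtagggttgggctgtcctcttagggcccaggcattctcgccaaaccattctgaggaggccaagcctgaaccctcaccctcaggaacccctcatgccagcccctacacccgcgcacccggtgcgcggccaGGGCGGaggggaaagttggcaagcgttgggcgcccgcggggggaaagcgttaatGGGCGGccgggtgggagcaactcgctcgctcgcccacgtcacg
Both windows are rich in G and C (69.1% for *Irx2* and 67.8% for *Irx4*, where the median over 32851 promoters is 51.7%) and hold 18 and 19 CpG dinucleotides against a median of 5. Each holds GGGCGG at 2 positions, and 29.8% of all promoters of this length hold it on either strand. Motifs for GATA factors (AGATAA, in 9.49% of promoters), NKX2-5 (CACTTNA, 9.48%), ETS factors (CCGGAAG, 5.56%), TEAD factors (GGAATG, 11.8%), Iroquois proteins (ACANNTGT, 5.95%) and the TATA box (TATAAA, 11.8%), searched on both strands, had 0 matches in either window. These letters thus do not tell the 2 windows apart. The *Irx3* window, searched alike, had 0 matches to GGGCGG and 0 to each of the other motifs.

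*Irx6* (ENSMUSG00000031738, chromosome 8, 92674288 to 92680956, plus strand) was barely expressed, with 11.1 to 48.5 counts per library. It was at 1.41, 2.33, 1.20 and 1.38 CPM in *Nrg1GOF* and at 1.19, 0.71, 1.09 and 1.15 CPM in WT. The groups were separated by less than the spread within either of them. Its log2 fold change of 0.61 had a 95% interval from -0.027 to 1.24 (adjusted p = 0.144), so at this depth a change in the range of that of *Irx1* was not detectable. Without *Nrg1GOF* replicate 2, its highest library, the log2 fold change was 0.34, and with libraries thinned to the smallest it was 1.06, neither called. The floor of 3 counts stood for 0.373 CPM of the total in *Nrg1GOF* replicate 4 and for 0.112 to 0.160 CPM in the other libraries, counting error only. *Irx6* overlaps *Gm45505* on the opposite strand.

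*Nrg1GOF* replicate 4 was the highest *Nrg1GOF* library in 5 of 6 members, including *Irx4*, and was also the shallowest. Without it, the log2 fold changes were 1.45 for *Irx5*, 1.29 for *Irx3*, 0.45 for *Irx2*, 0.41 for *Irx1* and -0.52 for *Irx4*, and these 5 genes were still called. It was also the highest *Nrg1GOF* library for each of the 6 ventricular cardiomyocyte markers described below. *Myl2*, for one, was at 4468 CPM there and at 3161 to 3832 CPM in the other *Nrg1GOF* libraries. For the fibroblast markers *Pdgfra*, *Col3a1*, *Dpt* and *Lum* it was the lowest *Nrg1GOF* library, though not for *Col1a1*. The part of depth or of tissue make-up in the high values of that library was not tested.

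Levels of different genes were compared per length, as CPM per kb of annotated exon. In WT the order was *Irx4* with 36.7 ± 4.12, *Irx3* with 11.3 ± 1.103, *Irx2* with 8.74 ± 1.18, *Irx1* with 6.50 ± 0.90, *Irx5* with 5.62 ± 0.78 and *Irx6* with 0.307 ± 0.065 CPM per kb (SD, n = 4). The ranges of *Irx3* and *Irx2* and those of *Irx1* and *Irx5* overlapped, although 4 of 4 WT libraries had the same order. *Irx4* was thus the predominant Iroquois transcript of the WT ventricle, with 53.0% ± 1.52 of the summed level of the 6 genes.

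In *Nrg1GOF* this order differed. *Irx3* stood at 29.8 ± 5.63 and *Irx4* at 27.2 ± 3.96 CPM per kb (SD, n = 4), with *Irx3* higher in 3 of 4 libraries and overlapping ranges. *Irx5* came next at 16.7 ± 2.89, above *Irx2* at 12.8 ± 1.97 and *Irx1* at 9.69 ± 2.21 CPM per kb, and *Irx6* remained last at 0.468 ± 0.152. The *Irx4* share of the summed level was 28.2% ± 1.46, while *Irx3* made up 30.8% ± 1.59 (16.4% ± 1.08 in WT) and *Irx5* 17.3% ± 0.284 (8.12% ± 0.503 in WT). The shares of *Irx1* (9.39% in WT, 9.96% in *Nrg1GOF*) and *Irx2* (12.6% and 13.3%) had ranges that overlapped between the genotypes. The summed level was 69.1 ± 7.63 CPM per kb in WT and 96.7 ± 16.2 in *Nrg1GOF*. All shares of an individual library are free of its scaling.

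**Figure D2:**
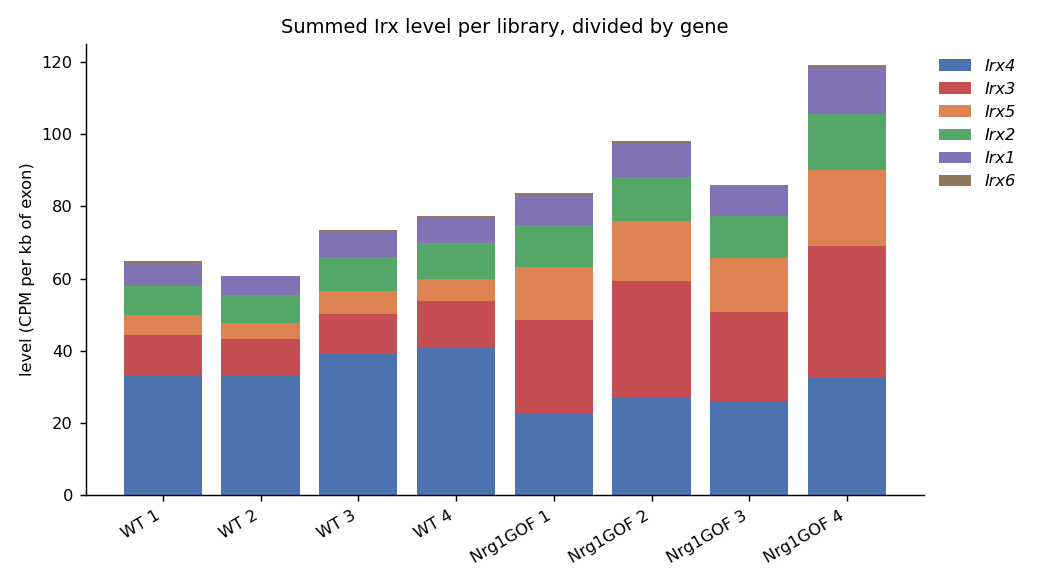
Level of the Iroquois genes in CPM per kb of exon (y axis) in each library (x axis), stacked by gene. *Irx4* (blue, bottom) takes 51.0% to 54.7% of the stack in WT and 27.2% to 30.4% in *Nrg1GOF*, and the *Irx3* (red) and *Irx5* (orange) parts are larger in *Nrg1GOF*.

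Whether members changed unequally was asked with the log2 ratio of 2 members within a library, which does not depend on how libraries are scaled. All 15 pairs were tested with an exact permutation test (two-sided, 4 against 4, smallest possible p = 0.0286), adjusted over the 15. In 11 pairs the genotypes did not overlap and the exact permutation adjusted p was 0.039. The pairs share genes and are not independent, and the 5 with *Irx4*, the member that fell, restate its opposite direction. The share of other gene pairs without overlap was not computed. The test treats the 4 WT libraries as exchangeable, although they formed 2 close pairs. With each WT pair summed to 1 sample the differences were similar (-1.98 for *Irx4/Irx5* and 1.81 for *Irx3/Irx4*). No p was computed for them, since 2 against 4 samples are too few for this test to fall under 0.05. The 11 pairs include 3 of the 5 pairs with *Irx6*, of which *Irx3/Irx6* (without *Nrg1GOF* replicate 4 or any 1 WT replicate) and *Irx5/Irx6* (without any 1 WT replicate) missed the threshold, with adjusted p from 0.0714 to 0.0779. In these fits the differences were 0.66 to 0.91 for *Irx3/Irx6* and 0.91 to 1.05 for *Irx5/Irx6*, beside 0.81 and 0.98 with all libraries. Without a WT replicate the lowest adjusted p of any pair was 0.0477.

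The widest shift was between *Irx4* and *Irx5*. Their log2 ratio of counts was 2.31, 2.60, 2.38 and 2.47 in WT replicates 1 to 4 and 0.40, 0.46, 0.54 and 0.38 in *Nrg1GOF* replicates 1 to 4, a difference of -1.999 (4 of 4 libraries below every WT library, exact permutation adjusted p = 0.039). The log2 ratio of *Irx3* to *Irx4* was -1.44, -1.65, -1.74 and -1.61 in WT and 0.25, 0.32, 0.0083 and 0.26 in *Nrg1GOF*, a difference of 1.82. The 2 genotypes were thus separated by over 1 log2 unit in both ratios. Replicate 4, high in level, did not stand apart from the other *Nrg1GOF* libraries in either ratio.

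Within the IrxA cluster, the neighbours *Irx2* and *Irx4* parted, with a log2 ratio of -1.74 ± 0.05 in WT and -0.75 ± 0.11 in *Nrg1GOF* (SD, n = 4 each). The *Irx1/Irx4* ratio differed by 0.998 on the log2 scale. Between the clusters, *Irx2* lost ground to *Irx3* by -0.83 and *Irx1* to *Irx5* by -1.001. The *Irx1/Irx5* log2 ratio varied least among WT libraries, at -0.048 ± 0.013 (SD, n = 4), against -1.05 ± 0.07 in *Nrg1GOF*.

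In the other 4 pairs the genotypes overlapped, among them *Irx1/Irx6* and *Irx2/Irx6* (exact permutation adjusted p = 0.971 each). The *Irx1/Irx2* log2 ratio was -0.75 ± 0.11 in WT and -0.74 ± 0.10 in *Nrg1GOF* (SD, n = 4 each, exact permutation adjusted p = 0.971). The *Irx3/Irx5* log2 ratio was 0.83 ± 0.13 in WT and 0.65 ± 0.09 in *Nrg1GOF*, a difference of -0.18 (exact permutation p = 0.0857, adjusted p = 0.107). With 4 libraries a group these values do not show that the members of either pair changed equally.

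**Figure D3:**
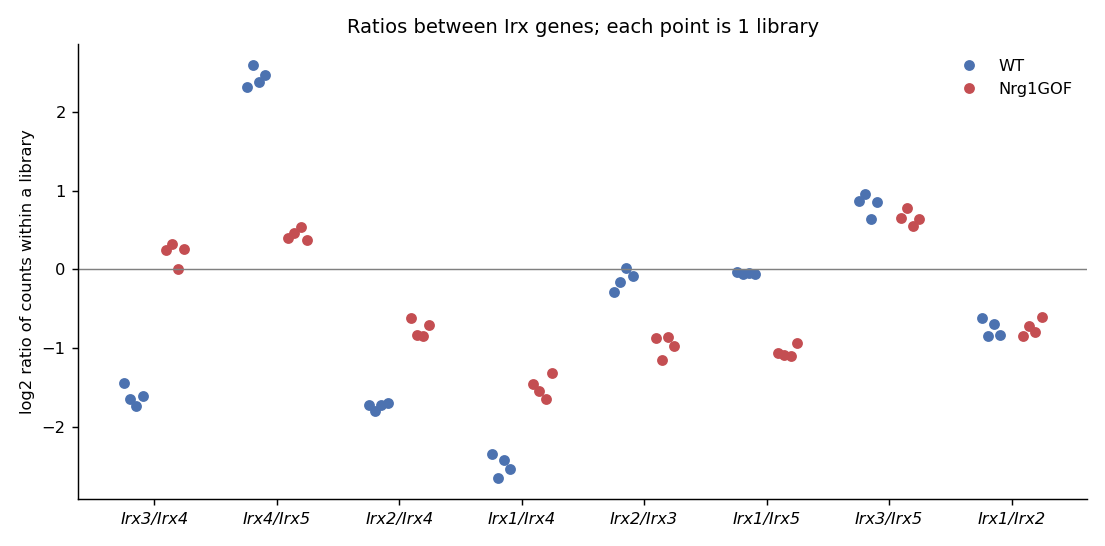
Log2 ratio of counts between 2 Iroquois genes within a library (y axis) for 8 of the 15 pairs (x axis), each point being 1 library (WT blue, *Nrg1GOF* red). The first 6 pairs do not overlap between genotypes, with the widest shift for *Irx4/Irx5*, whereas *Irx3/Irx5* and *Irx1/Irx2* do.

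The genes next to the members were examined within 1 Mb of a member's start site. Of 115 annotated genes in these windows, 29 passed the filter, and 13 of them were called (8 higher and 5 lower), 44.8% against 28.7% of all tested genes. Around *Irx3*, *Irx5* and *Irx6*, 5 of 14 were called and 5 of these 5 were higher. Around the IrxA cluster 8 of 15 were called, 3 higher and 5 lower. Of these 15, *Gm20554* alone was nearest to *Irx2*, and *Irx1* had no such neighbour. The others lay beyond *Irx4*, with starts 68034 to 948253 bases from its own. The difference between the clusters was not tested.

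In the IrxB cluster the called neighbours lay on the *Irx5* side of *Irx3*, apart from *Irx3os*. *Crnde*, a long non-coding RNA whose start lies 1505 bases from that of *Irx5* on the opposite strand (92326033 to 92356120), was at 14.3, 17.1, 14.5 and 15.1 CPM in *Nrg1GOF* and 6.15, 7.42, 7.64 and 7.87 CPM in WT. The genotypes did not overlap (log2 fold change 1.07, SE 0.11, adjusted p = 0.000115). *Irx3os*, which starts 1652 bases from *Irx3*, rose by 0.95 on the log2 scale (SE 0.30, adjusted p = 0.0417) with overlapping groups, and the intergenic RNA *Gm36670*, between *Irx3* and *Irx5*, by 1.12 (SE 0.30, adjusted p = 0.0207). Beyond *Irx6*, *Mmp2*, a gelatinase gene expressed by fibroblasts, rose from 119 ± 13.4 to 248 ± 25.6 CPM (SD, n = 4 each, log2 fold change 1.06, adjusted p = 6.79e-05) and *Lpcat2* by 1.07 (SE 0.24, adjusted p = 0.00786).

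On the other side of *Irx3* none of the 7 tested genes from *Chd9* to *Fto* was called. *Fto*, whose introns are known to hold enhancers that contact *Irx3* and *Irx5*, averaged 133 ± 11.7 CPM over WT and 126 ± 7.29 CPM over *Nrg1GOF* libraries, a log2 fold change of -0.08 with a 95% interval from -0.24 to 0.084 (adjusted p = 0.474). Nearer to *Irx3*, the intergenic RNA *Gm36325* had 1.29 (SE 0.45, adjusted p = 0.0567) at under 1 CPM. *Gm20554*, which starts 256 bases from *Irx2* on the other strand, had 0.31 (SE 0.30, adjusted p = 0.496). Downstream of *Irx4*, the mitochondrial ribosomal gene *Mrpl36* fell by 0.28 (SE 0.06, adjusted p = 0.00888) and the intergenic RNA *Eprn* fell by 0.55 (SE 0.17, adjusted p = 0.0365) on the log2 scale, the latter with overlapping groups. Farther from *Irx4*, *Slc12a7* fell by 0.21, *Nkd2* by 0.44 and *Trip13* by 0.30, while *Lpcat1* rose by 0.20, *Clptm1l* by 0.17 and *Tppp* by 0.37 (adjusted p from 0.00604 to 0.0326).

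**Figure D4:**
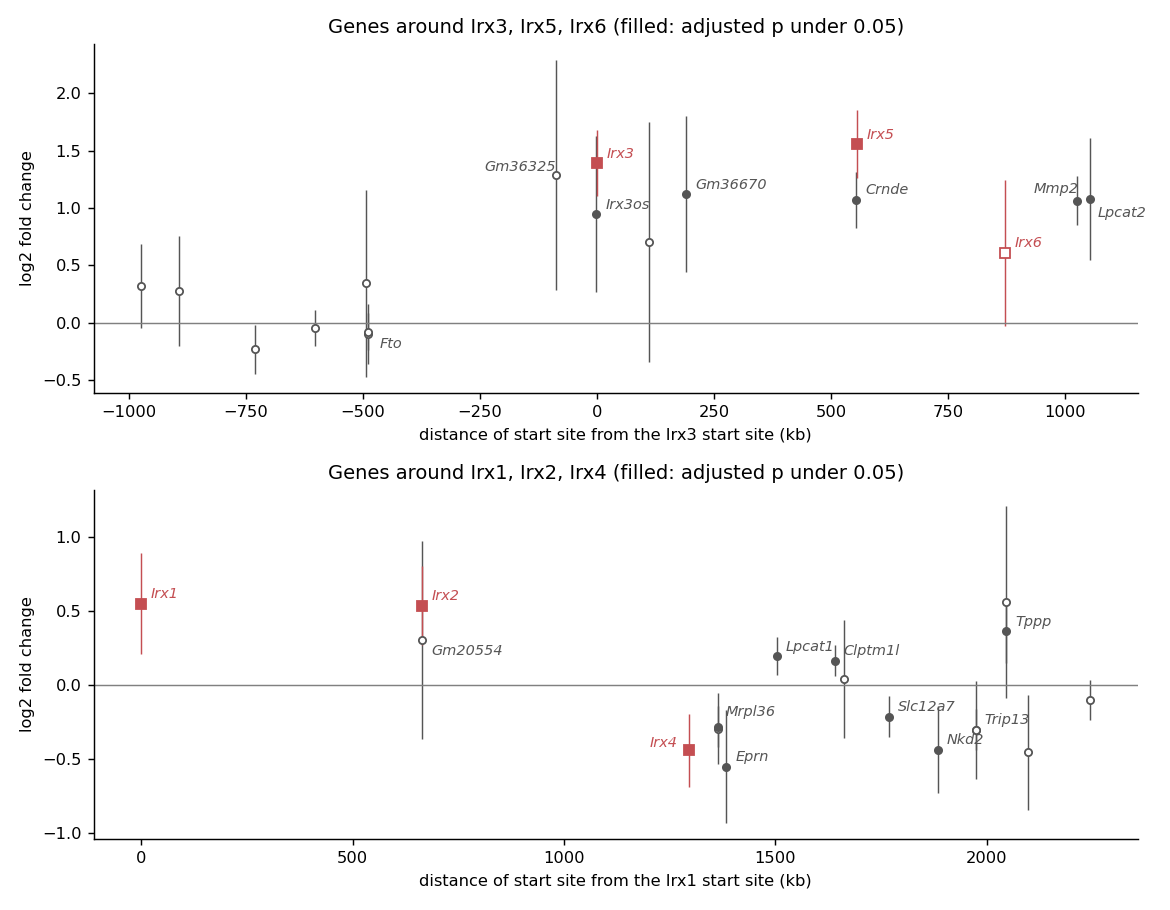
Log2 fold change with its 95% interval (y axis) of every tested gene within 1 Mb of a member, against the distance of its start site from that of *Irx3* (top, chromosome 8) or *Irx1* (bottom, chromosome 13) in kb. Members are red squares and other genes gray circles, filled where called. From *Irx3* to *Lpcat2* the fold changes lie above 0, although the intervals of *Irx6* and of the unlabelled *Gm28515* include 0. Around *Irx4* the fold changes lie on both sides of 0.

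The other TALE homeobox genes were compared as relatives of the family. Of 12 tested, 5 were called, 4 higher and 1 lower (41.7%, beside 28.7% of all tested genes), with a median log2 fold change of 0.14. *Mkx*, an Iroquois-related factor of tendon, was at 1.45, 2.10, 1.497 and 1.38 CPM in *Nrg1GOF* and 0.73, 0.93, 0.77 and 0.25 CPM in WT (log2 fold change 1.29, SE 0.36, adjusted p = 0.0228). *Pknox2* rose by 0.93 (SE 0.14, adjusted p = 0.00119), *Meis3* by 0.61 (SE 0.13, adjusted p = 0.0055) and *Meis2*, a cofactor of cardiac progenitors, by 0.33 (SE 0.07, adjusted p = 0.00525). *Pbx3* fell by 0.18 (SE 0.05, adjusted p = 0.0281). Among these relatives and the Iroquois genes, *Irx5* and *Irx3* had the highest fold changes.

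Of 8 heart genes that are reported to be regulated by Iroquois factors, 5 were called (62.5%, beside 28.7% of all tested genes), 2 higher and 3 lower, with a median log2 fold change of 0.12. *Kcnd2*, which encodes a channel subunit of the transient outward current and is repressed by *Irx5* in adult myocardium, was at 2.22, 1.67, 1.33 and 1.13 CPM in *Nrg1GOF* and 11.3, 10.7, 11.6 and 11.1 CPM in WT (log2 fold change -2.76, SE 0.18, adjusted p = 1.06e-05). Every *Nrg1GOF* library was far below every WT library. The connexin gene *Gja5* rose by 0.51 (SE 0.07, adjusted p = 0.000725), while the connexin gene *Gja1* had 0.15 (SE 0.07, adjusted p = 0.144). *Myh7*, the fetal ventricular myosin, fell by 0.48 (SE 0.07, adjusted p = 0.000867), *Hand1* rose by 0.38 (SE 0.11, adjusted p = 0.0237) and *Cxcl12* fell by 0.19 (SE 0.05, adjusted p = 0.0189). *Smyd1* (0.08, adjusted p = 0.273) did not pass the test. The lists overlap, since *Myh7* is also one of the ventricular cardiomyocyte markers below and *Gja5* one of the wall markers. Of 9 ventricular wall markers outside the family, 9 were called, 8 higher and 1 lower (15.9% and 12.8% of all tested genes). These are markers that the study examined, at least some of them in RNA-seq of this model, so they are not independent evidence of a direction. The study also examined *Irx1*, *Irx2* and *Irx3*.

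Cell type markers also differed between the groups, where 15.9% of all tested genes were called higher and 12.8% lower. Of 6 ventricular cardiomyocyte markers, 5 were called lower with a median log2 fold change of -0.36, beside -0.44 for *Irx4*, and their summed level was 33500 to 36300 CPM in WT and 24000 to 30300 CPM in *Nrg1GOF*. Called higher were markers of fibroblasts (5 of 5, 2540 to 3470 CPM in WT and 4650 to 5850 CPM in *Nrg1GOF*), immune cells (5 of 5, 43.6 to 47.0 and 88.5 to 106 CPM), endothelium and endocardium (5 of 8, 1080 to 1120 and 1220 to 1340 CPM) and atrial myocardium (3 of 7, 1020 to 1140 and 1620 to 1790 CPM). Epicardial markers went both ways (3 higher and 1 lower of 6), as did mural ones (1 and 2 of 4), and 0 of 6 red blood cell markers and 0 of 2 tested neural markers were called. The part of these differences in the values of the members was not tested. Lung epithelium, which expresses several Iroquois genes, had markers at or near 0, with *Sftpc* at 0 counts in 8 of 8 libraries and no other of its 5 markers above 11.4 counts.

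To see how the members stood against these markers, libraries were rescaled so that a marker list was held constant. With the cardiomyocyte list constant, *Irx4* had a log2 fold change of -0.07 (adjusted p = 0.519), and was not called, *Irx6* was called (0.99, adjusted p = 0.0156), and *Irx5*, *Irx3*, *Irx1* and *Irx2* had 1.92, 1.75, 0.92 and 0.90. The median of all tested genes was then 0.359, and 8362 genes were called, 8104 higher and 258 lower. With the endothelial list constant, *Irx1* and *Irx2* had 0.12 and 0.10 (adjusted p = 0.505 and 0.465, neither called), *Irx3* and *Irx5* still had 0.95 and 1.12, and *Irx4* had -0.88, at a median of all genes of -0.445. Under TMM scaling the members of that list were unequal, with log2 fold changes of 0.08 for *Pecam1*, -0.04 for *Cdh5* and -0.04 for *Kdr*, which were not called, and of 1.21 for *Nfatc1* and 0.67 for *Emcn*, which were. *Irx3* and *Irx5* were higher and called under both scalings. *Irx4* was called lower with the endothelial list constant (edgeR adjusted p = 0.000112) but not with the cardiomyocyte list constant. With the endothelial list constant, 760 of all tested genes were called higher and 9598 lower. Which cells carried the transcripts was not measured here.

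**Figure D5:**
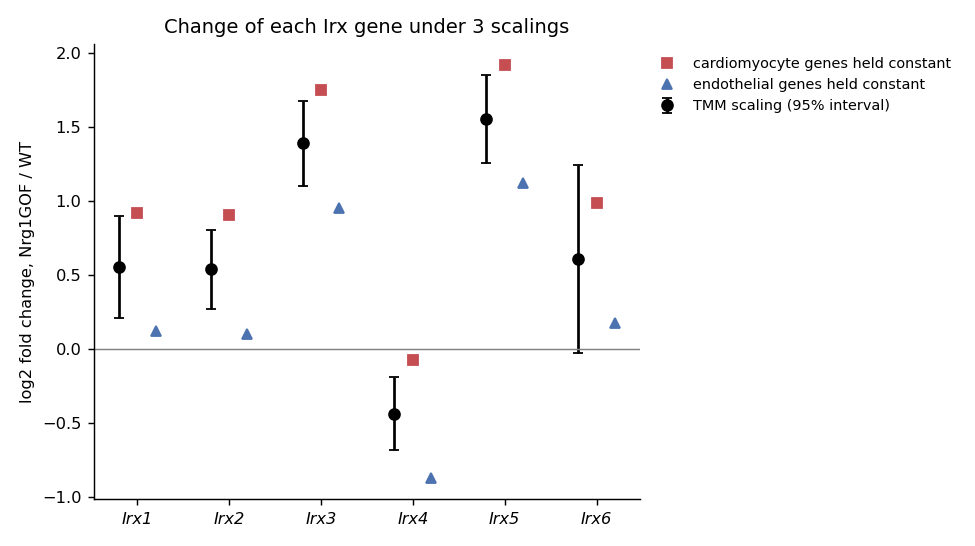
Log2 fold change of *Nrg1GOF* over WT (y axis) for each member under TMM scaling with its 95% interval (black), with ventricular cardiomyocyte markers held constant (red squares) and with endothelial markers held constant (blue triangles). *Irx3* and *Irx5* stay at 0.95 or more, *Irx4* moves from -0.88 to -0.07, and the order of the members is kept because a scaling shifts them together.

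The genes with the profile most like that of each member were sought among 12263 protein-coding genes, by the mean absolute difference of centred log2 CPM over the 8 libraries. This measure includes the genotype difference and is a description only. The profile of *Irx3* was closest to *Trim72* (0.0943), a membrane repair gene of striated muscle, and next to *Irx5* (0.123), its neighbour in the cluster. That of *Irx5* was closest to the secreted semaphorin gene *Sema3b* (0.0757), whose log2 fold change was 1.49, and then to *Tesc* (0.114). *Irx4* was closest to *Rbm38* (0.0379), *Coq6* (0.0403) and the metabolic nuclear receptor gene *Esrra* (0.0467). *Irx1* was closest to the phosphatase gene *Dusp2* (0.0361), *Irx6* to *Mlkl* (0.142), and *Irx2* to *Hfe2* (0.0516), *Gpr182* (0.054) and the Notch target *Hes1* (0.057).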

How the data were processed

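Per the labels, poly(A) RNA from heart ventricles at E15.5 (100 ng of RNA, directional libraries, single reads of 60 bases) was sequenced for 4 *Nrg1GOF* and 4 WT samples, grouped by sample title. The values deposited by the authors are expected counts for each gene (GRCm38, Ensembl release 91), scaled for neither depth nor length. The submitters' processing notes name cutadapt and RSEM 1.3.1, and the aligner and strand setting are not given in the sources used here. Expected counts share multiply mapping reads by estimated abundance. Here they were rounded, filtered with filterByExpr, scaled by TMM and tested with the quasi-likelihood F-test of edgeR 4.0.16 (R 4.3.3) with genotype as the sole term, with Benjamini-Hochberg adjustment across the 15580 genes that passed. Each SE was taken as the size of the log2 fold change over the root of its F value. Tests were two-sided. Symbols were matched for 53274 of 53465 genes. Coordinates and exon lengths came from GENCODE M21 (GRCm38), a later annotation than that used for counting, so gene boundaries can differ. Log2 ratios used counts plus 0.5. The edgeR fit and the permutation test were tested on simulated data.

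The members, neighbour windows, gene lists and alternatives were chosen with earlier results of these data known. Named genes were the 6 members, called or adjacent neighbours, the listed genes and the 3 closest profiles (average log2 CPM of at least 1). Alternatives were DESeq2 1.42.0, limma-voom (limma 3.58.1), the likelihood ratio test, other scalings, filters and thresholds, thinning, a replicate block, subsets of WT and leaving out each library. The 95% intervals come from the edgeR fit and include the spread between libraries, whereas the floor of 3 counts covers counting error only. Columns not mapped to a sample numbered 0.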

Additional observations from a re-analysis of the deposited data

Results flagged for a closer look

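Of 12 sets of 4 values (6 genes in 2 genotypes), 1 held a library far from the others by Dixon's test, and chance singles out about 1 in 20. *Irx2* in *Nrg1GOF* replicate 4 was at 51.6 CPM, while replicates 1 to 3 lay between 37.7 and 40.1 CPM, a gap of 0.832 of the range. This library was the shallowest, and without it *Irx2* had a log2 fold change of 0.45.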

How the results depend on the processing

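Alternatives gave 412 values, of which 363 had the direction and side of the threshold reported above or, for counts and shares, lay within a tolerance. For counts that tolerance was wide. The 2999 genes called against WT replicates 1 and 2 alone lay within it, beside 4467 in the main fit. *Irx3* and *Irx5* had an adjusted p under 0.05 in 25 of 25 alternatives, *Irx2* in 24, *Irx4* in 22, *Irx1* in 19 and *Irx6* in 1, with the cardiomyocyte list held constant (0.99, adjusted p = 0.0156). Members called fell from 5 to 3 with the endothelial list constant, with WT pairs summed and at an adjusted p under 0.01. Genes called numbered 8362 with the cardiomyocyte list constant (8104 higher, 258 lower) and 10358 with the endothelial list constant (760 higher, 9598 lower). They numbered 2536 after thinning, 2464 with WT pairs summed and 2535 at the stricter threshold. The cause was not tested beyond the construction of each. Scaling by library total gave 2874 higher and 1521 lower genes against 2474 and 1993. Across fits that each left out a library, genes called ranged from 3239 to 4261, members called from 4 to 5 and ratio pairs from 9 to 11. The near-zero ratios changed sign when WT pairs were summed, *Irx1/Irx2* to -0.00249, *Irx1/Irx6* to 0.00302 and *Irx2/Irx6* to 0.00551, and lay between -0.034 and 0.053, -0.201 and 0.186, and -0.167 and 0.183 when a library was left out. With longest transcript lengths 7 shares moved beyond the replicate SD, that of *Irx4* to 50.2% in WT and 26.1% in *Nrg1GOF*. Whether replicate numbers pair the samples was not settled. Correlations of deviations were 0.129, 0.0492, 0.199 and 0.0668 for equal numbers and -0.263 to 0.187 for unequal ones. The highest unequal value was for *Nrg1GOF* replicate 1 with WT replicate 2, above that with its own number. *Nrg1GOF* replicates 1 and 2 had values above 0 with WT replicates 1 and 2 and below 0 with WT replicates 3 and 4. *Nrg1GOF* replicate 3 had the reverse, and replicate 4 had mixed signs in both WT pairs or values near 0. With the replicate block 5 members and 4524 genes were called. TALE relatives called numbered 4 with scaling by library total and 7 with the replicate block, against 5. *Irx6* had at most 48.5 counts in a library, which limits its precision.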
